A study of Homo sapiens with 12 samples.

Results

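The cholesterol and fatty acid synthesis genes are 29 genes driven by the sterol regulatory element-binding proteins (SREBPs), and all 29 were found by symbol among the 56269 genes of the count table. The choice followed the genes' known functions, but it was made with earlier results of these data known. Their messenger RNA was measured by RNA-seq in HEYA8 cells, an established human ovarian cancer cell line, in 12 libraries of 4 groups with 3 libraries each. The betaglycan constructs were carried by a lentiviral dTomato backbone and infected cells were sorted by its fluorescence, the backbone of the control vector is not given in the sources used here, and cells were harvested in serum-containing growth medium with no ligand added. The groups were cells with the control vector, cells expressing ∆GAG-BG (betaglycan without glycosaminoglycan chains), cells expressing S534A (CS-BG, with mainly chondroitin sulfate chains) and cells expressing S545A (HS-BG, with mainly heparan sulfate chains). Betaglycan is the TGF-β co-receptor encoded by TGFBR3. The sources used here describe 1 sorted population for each construct and do not say whether the 3 libraries of a group came from separate cultures, so each p-value below measures the spread between these libraries, which may be technical.

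SREBPs are transcription factors made as membrane proteins of the endoplasmic reticulum (ER). When membrane cholesterol is low, their escort SCAP carries them to the Golgi apparatus, where proteases release the active part, which enters the nucleus and raises transcription of the enzymes of sterol and fatty acid synthesis. When cholesterol is plentiful, INSIG proteins hold the complex in the ER. SREBF2 encodes the form that acts mainly on cholesterol synthesis, and SREBF1 the form that acts mainly on fatty acid synthesis. Tumor cells in culture use both routes to make membranes.

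Levels are given as CPM, the deposited counts divided by each library's TMM-adjusted total and scaled to 1e6. Library totals ranged from 16410001 to 29504297 counts (median 24166676.5), and the limit that a count of 0 allows, 3 counts, came to between 0.102 and 0.183 CPM, which covers counting error only. All 29 genes passed edgeR's filter on low counts, as did 16069 genes of the table. TGFBR3, the gene of the constructs, stood at 15.9, 259 and 259 CPM in control-1 to control-3, at 259.6, 20.3 and 21.4 CPM in the libraries labelled ∆GAG-1 to ∆GAG-3, at 476, 413 and 457 CPM in S534A and at 574, 522 and 520.4 CPM in S545A. It was therefore low in the libraries labelled ∆GAG-2 and ∆GAG-3 and high in those labelled control-2 and control-3, against those labels, and library names here are the labels only. Every direction below that involves ∆GAG or control rests on these labels. Within each of control, ∆GAG and S545A, libraries 2 and 3 were close to each other, and a chi-square statistic over genes, divided by its degrees of freedom, was 1.37 to 1.89 for these pairs and 15.6 to 69.1 for the other pairs of a group. Pairs from different groups ran from 3.63 (S534A-1 and S545A-1) to 108 (∆GAG-1 and S534A-2). Some libraries were thus closer to a library of another group than to those of their own, and the cause was not tested. The epithelial markers PAX8, KRT7, KRT8 and KRT18 were present, and so was the mesenchymal marker VIM at 2343 to 3132 CPM. The epithelial gene EPCAM held 11 to 43 counts, WT1 stood at 3.42 to 8.38 CPM, the ovarian carcinoma antigen gene MUC16 had 0 counts in every library, and markers of leukocytes and fat cells held at most 3 counts. The endothelial marker VWF was present at 2.64 to 14.9 CPM, and PECAM1 held 4 to 17 counts. Of the fibroblast markers, PDGFRB stood at 0.701 to 5.04 CPM, and DCN and LUM had 0 counts. The hepatocyte markers ALB and APOA1 held at most 6 counts.

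Per kilobase of exon, the fatty acid branch held the most abundant messages of the set. The mean level over the 12 libraries was 104 CPM per kb for SCD, the desaturase that makes monounsaturated fatty acids, 101 for ACLY, which makes cytosolic acetyl-CoA from citrate, and 63.8 for FASN, the fatty acid synthase. The sterol branch followed with SQLE, the squalene epoxidase, at 45.3 CPM per kb and FDFT1, the squalene synthase, at 43.4. SREBF2 reached 41.2 CPM per kb and SREBF1 reached 9.22. The lowest were the mevalonate kinase gene MVK at 2.31 CPM per kb and the lanosterol demethylase gene CYP51A1 at 0.757. CYP51A1 held only 35 to 111 counts per library, and 78.8% of its exon bases in the table were shared on the same strand with LRRD1, so its level is uncertain. For ACAT2, HMGCS1, IDI1 and FDPS between 14.9% and 52.3% of exon bases overlapped genes on the opposite strand, and whether the counting used strand is not given in the sources used here.

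No synthesis gene was called different between any of the 4 groups after adjustment in the tests run. In edgeR's quasi-likelihood test with Benjamini-Hochberg adjustment, 0 of 29 passed an adjusted p of 0.05 in any of the 6 comparisons, against 0% of all genes tested in each. DESeq2 and limma-voom also called 0 of 29, while over all genes DESeq2 called 5 in S534A against ∆GAG, 2 in S534A against control and 1 in S545A against S534A, and limma-voom called 1 in each of these comparisons. At an unadjusted p under 0.05, edgeR, DESeq2 and limma-voom each passed 0 of 29 in every comparison. Over all genes tested edgeR passed 0.871% in ∆GAG against control, 2.99% in S534A against ∆GAG, 1.1% in S545A against ∆GAG, 3.45% in S534A against control, 1.05% in S545A against control and 4.78% in S545A against S534A. The intervals were wide. The median standard error of a log2 fold change was 0.307 for these genes in ∆GAG against control and 0.171 over all genes tested.

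**Figure D1:**
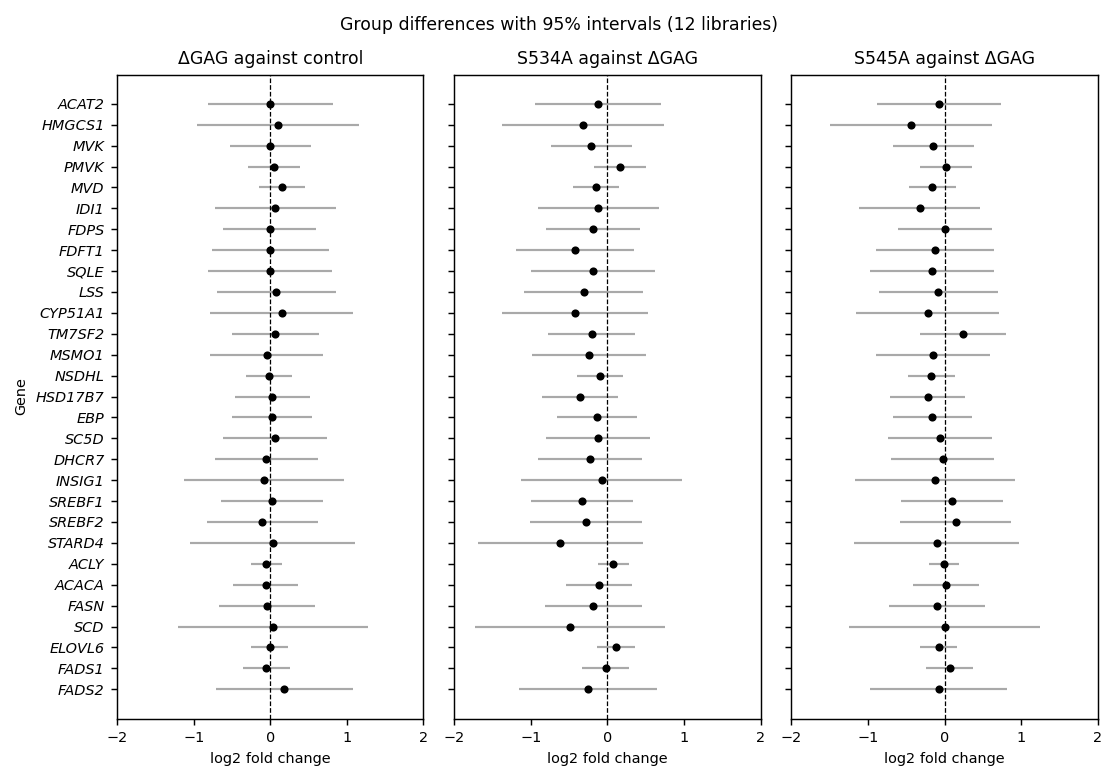
Log2 fold change (x axis) of each of the 29 genes (y axis, ordered by role) between group means, with bars for the 95% confidence interval from edgeR over 12 libraries, 3 in each group. Every interval crosses 0 in all 3 comparisons drawn, and the half-width of the widest is 1.25.

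In ∆GAG against control, the median log2 fold change of the 29 genes was 0.0008, with 14 below 0 and 15 above, and the median over all genes tested was 0.003. The smallest unadjusted p belonged to MVD, the mevalonate diphosphate decarboxylase gene, whose log2 fold change was 0.15 with a standard error of 0.14 (unadjusted p = 0.298 in edgeR's quasi-likelihood test). The largest difference was that of the fatty acid desaturase gene FADS2, at 0.18 with a standard error of 0.41. Without ∆GAG-2 the median of the 29 genes was -0.14 with 25 below 0, and without ∆GAG-3 it was -0.15 with 24 below 0.

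In S534A against ∆GAG, the genes leaned lower in S534A, with a median log2 fold change of -0.19 and 26 of 29 below 0. Without S534A-2 alone the median was -0.0025 with 15 of 29 below 0, and without ∆GAG-2 or ∆GAG-3 it was -0.037 with 20 below 0 or -0.045 with 17 below 0. With all libraries, all 11 genes of the sterol branch and all 4 regulators were below 0. STARD4, a carrier of cholesterol in the cytosol, had the largest difference, at -0.62 with a 95% interval from -1.70 to 0.47, and HSD17B7, a reductase of the sterol route, had the smallest unadjusted p in edgeR's quasi-likelihood test, 0.137. In S534A against control the median was -0.19 with 25 of 29 below 0, and the interval of STARD4 ran from -1.67 to 0.50. Without S534A-2 that median was 0.02 with 11 of 29 below 0. Both comparisons share the S534A libraries.

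In S545A against ∆GAG, the median was -0.08 with 22 of 29 below 0. Its sign changed to 0.07 without ∆GAG-2, 0.08 without ∆GAG-3 (9 of 29 below 0 in each) and 0.04 without S545A-1 (13 below 0). HMGCS1, which makes HMG-CoA at the head of the mevalonate route, had the largest difference, -0.44 with an interval from -1.50 to 0.62. In S545A against control, the median was -0.07 with 21 of 29 below 0 (-0.01 with 15 below 0 without S545A-1), and the smallest unadjusted p in edgeR's quasi-likelihood test was 0.205, for the sterol dehydrogenase gene NSDHL. In S545A against S534A, the 2 single-chain forms, the median was 0.09 with 9 of 29 below 0, and the largest difference was that of STARD4 at 0.51 with an interval from -0.57 to 1.59. Without S534A-2 the median was -0.09 with 22 of 29 below 0, and the difference of STARD4 was 0.14. For that pair, with all libraries, TM7SF2, a sterol reductase gene, had the smallest unadjusted p in edgeR's quasi-likelihood test, 0.11. The medians over all genes tested lay between -0.0066 and 0.0078 in the 6 comparisons.

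The library values of 2 groups did not overlap for 0 of the 29 genes in ∆GAG against control, 0 in S534A against ∆GAG, 0 in S545A against ∆GAG, 0 in S534A against control, 4 in S545A against control and 1 in S545A against S534A. The shares over all genes tested were 4.87%, 5.66%, 5.05%, 7.65%, 8.82% and 10.1% in the same order. The 4 genes were HMGCS1, the isomerase gene IDI1, NSDHL and ACLY, all lower in S545A than in control. HMGCS1 averaged 69.4 ± 19.3 CPM in S545A and 87.9 ± 5.08 CPM in control (SD, n = 3 each), a log2 difference of -0.34 with an interval from -1.40 to 0.72. The exact permutation test over these libraries, two-sided, gave p = 0.1, the smallest that 3 against 3 allows. Groups of 3 that do not overlap always give this value, so it adds nothing to the separation. ACLY, the only gene that separated S545A from S534A, differed there by -0.09 on the log2 scale.

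The larger differences lay between libraries of the same group. Median fold ranges, from the lowest to the highest library of a group, were 2.1 for the 29 genes and 1.27 for all genes in ∆GAG, 2.0 and 1.35 in S534A, 1.38 and 1.22 in S545A, and 1.15 and 1.22 in control. In ∆GAG, 17 of 29 genes spanned more than 2-fold, against 12.2% of all genes. The counts were 14 of 29 against 16.2% in S534A, 2 of 29 against 8.53% in S545A and 1 of 29 against 8.28% in control.

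**Figure D2:**
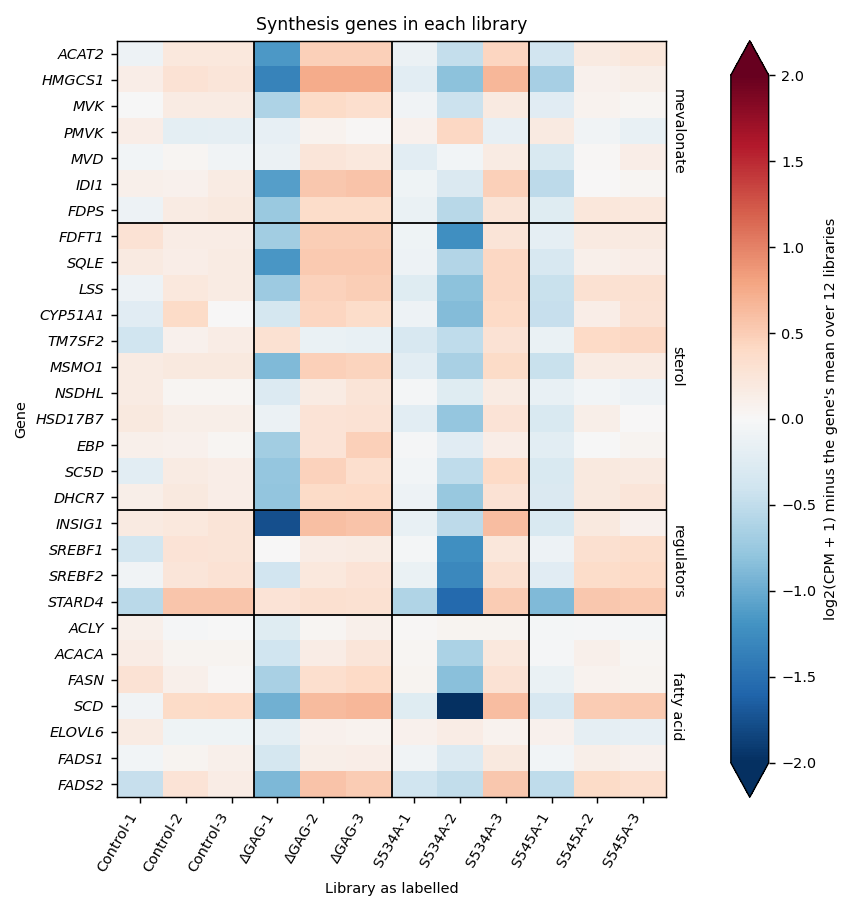
Deviation of each gene (rows, by role) in each of the 12 libraries (columns, as labelled), as log2(CPM + 1) minus the gene's mean over the libraries. The columns of ∆GAG-1 (median deviation -0.65) and S534A-2 (median -0.55) are low for most genes, and ∆GAG-2 and ∆GAG-3 (medians 0.37 and 0.36) are high.

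The library labelled ∆GAG-1 was the lowest of its group for 28 of 29 genes, and over all genes tested it was the lowest for 43.4%. The exception was TM7SF2. The other 2 libraries of that group were the lowest for 0 and 1 gene, against 28.7% and 27.9% of all genes. S534A-2 was the lowest of its group for 25 of 29 (40.0% of all genes), with PMVK, MVD, ACLY and ELOVL6 as exceptions, and S534A-1 and S534A-3 for 2 each (25.6% and 34.4%). S545A-1 was the lowest of its group for 26 of 29 (42.3%), with PMVK, ACLY and ELOVL6 as exceptions, and S545A-2 and S545A-3 for 1 and 2 (30.3% and 27.4%). In control the counts were 17, 7 and 5 (43.9%, 29.8% and 26.3%). Over the 12 libraries, ∆GAG-1 was the lowest for 16 genes (16.0% of all genes) and S534A-2 for 11 (25.4%), while ∆GAG-3 was the highest for 12 (5.5%) and ∆GAG-2 for 8 (5.74%). No test was made of these ranks, since 1 library has no replicate of its own.

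Among the 7 genes of the mevalonate route, HMGCS1 occupies positions 43289395 to 43313512 of chromosome 5 (GRCh38, minus strand). It stood at 82.4, 92.3 and 89.1 CPM in control-1 to control-3, at 29.3, 126 and 127 CPM in ∆GAG-1 to ∆GAG-3, at 64.9, 42.2 and 119.7 CPM in S534A and at 47.1, 79.5 and 81.5 CPM in S545A. The library labelled ∆GAG-1 was below every other library and its 2 partners were above every other library, so the ∆GAG values enclosed those of all other groups. The mean of the 2 partners was 4.32 times the level in ∆GAG-1. ACAT2, the acetyl-CoA acetyltransferase that feeds the route, showed the same order at 22.6, 71.9 and 72.3 CPM in ∆GAG and 36.7 to 69.5 CPM in S534A. IDI1 ran at 29.1, 93.0 and 95.1 CPM in ∆GAG, a 3.23-fold difference of the partners over ∆GAG-1. FDPS, the farnesyl diphosphate synthase gene, was at 70.5, 154 and 153 CPM and MVK at 9.25, 19.5 and 18.8 CPM in the same libraries. The kinase gene PMVK and MVD stood apart from these. PMVK ranged only from 24.8 to 38.2 CPM over the 12 libraries and was highest in S534A-2, while MVD ranged from 32.2 to 47.9 CPM and was lowest in S545A-1.

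The 11 genes of the sterol branch, from squalene to cholesterol, were lowest over the 12 libraries in ∆GAG-1 for 6 genes and in S534A-2 for 5 (FDFT1, LSS, CYP51A1, TM7SF2 and HSD17B7). FDFT1 was at 262, 238 and 239 CPM in control, at 133, 304 and 303 CPM in ∆GAG, at 202, 91.7 and 256 CPM in S534A and at 189, 244 and 245 CPM in S545A. It was lowest in S534A-2, which lay 2.5-fold below the mean of the other S534A libraries. SQLE was at 211, 203 and 208 CPM in control, at 82.2, 268 and 269 CPM in ∆GAG, at 173, 124 and 248 CPM in S534A and at 149.6, 201 and 203 CPM in S545A. Its control libraries lay within 1.04-fold of each other, while its ∆GAG libraries spanned 3.27-fold. For the lanosterol synthase gene LSS, the methylsterol oxidase gene MSMO1, the desaturase gene SC5D, the isomerase gene EBP and the last reductase gene DHCR7, the mean of ∆GAG-2 and ∆GAG-3 was 2.22 to 2.57 times the level in ∆GAG-1. NSDHL and HSD17B7 differed less, by 1.41-fold and 1.34-fold. TM7SF2 went the other way, at 10.6, 7.57 and 7.41 CPM in ∆GAG, and was lowest in S534A-2 at 5.57 CPM.

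The 4 regulators did not vary alike. INSIG1, on chromosome 7 from 155297776 to 155310235 on the plus strand, encodes the ER retention factor and is itself a known SREBP target. It was at 50.6, 52.0 and 53.5 CPM in control, at 12.6, 68.2 and 66.4 CPM in ∆GAG, at 40.1, 30.9 and 69.1 CPM in S534A and at 36.1, 51.4 and 47.3 CPM in S545A. Its 5.43-fold span in ∆GAG was the widest of the 29 genes in that group, and its 1.06-fold span in control was among the narrow ones. STARD4, on chromosome 5 from 111496033 to 111512590 on the minus strand, was at 91.2, 196 and 196 CPM in control, at 161, 168 and 165 CPM in ∆GAG, at 88.0, 44.5 and 191 CPM in S534A and at 72.1, 195 and 192 CPM in S545A. Here the ∆GAG libraries were level, within 1.04-fold, and the low libraries were S534A-2 and the first library of control, S534A and S545A.

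SREBF1, which encodes SREBP-1, was at 72.1, 79.2 and 79.8 CPM in ∆GAG and at 69.4, 30.1 and 84.2 CPM in S534A. SREBF2, which encodes SREBP-2 and lies on chromosome 22 from 41833079 to 41907308 on the plus strand, was at 285, 353 and 366 CPM in control, at 229, 344 and 359 CPM in ∆GAG, at 273, 121 and 373 CPM in S534A and at 255, 384 and 392 CPM in S545A. Both were lowest of all libraries in S534A-2, at 2.56-fold and 2.66-fold below the mean of the other S534A libraries. In ∆GAG-1 they lay 1.1-fold and 1.53-fold below their partners, less than HMGCS1, SQLE or INSIG1.

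Of the 7 genes of fatty acid synthesis, SCD varied most. It lies on chromosome 10 from 100347124 to 100364834 on the plus strand and was at 476, 647 and 657 CPM in control, at 256, 773 and 792 CPM in ∆GAG, at 419, 112 and 766 CPM in S534A and at 398, 706 and 715 CPM in S545A. The 6.82-fold span in S534A was the widest of the set, and S534A-2 was the lowest of all libraries. FASN was at 707, 620.1 and 591 CPM in control, at 369.8, 733 and 762 CPM in ∆GAG, at 604, 324 and 713 CPM in S534A and at 529, 612 and 602 CPM in S545A. The acetyl-CoA carboxylase gene ACACA was 1.51-fold and 1.71-fold lower in ∆GAG-1 and S534A-2 than the means of their partners. FADS2 was 2.81-fold lower in ∆GAG-1, and FADS1, the neighboring desaturase gene, 1.39-fold. ACLY stood between 509.9 and 560.4 CPM in 11 libraries and at 444 CPM in ∆GAG-1. ELOVL6, a fatty acid elongase gene, ranged only from 30.8 to 39.5 CPM and was not low in S534A-2, at 39.2 CPM.

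**Figure D3:**
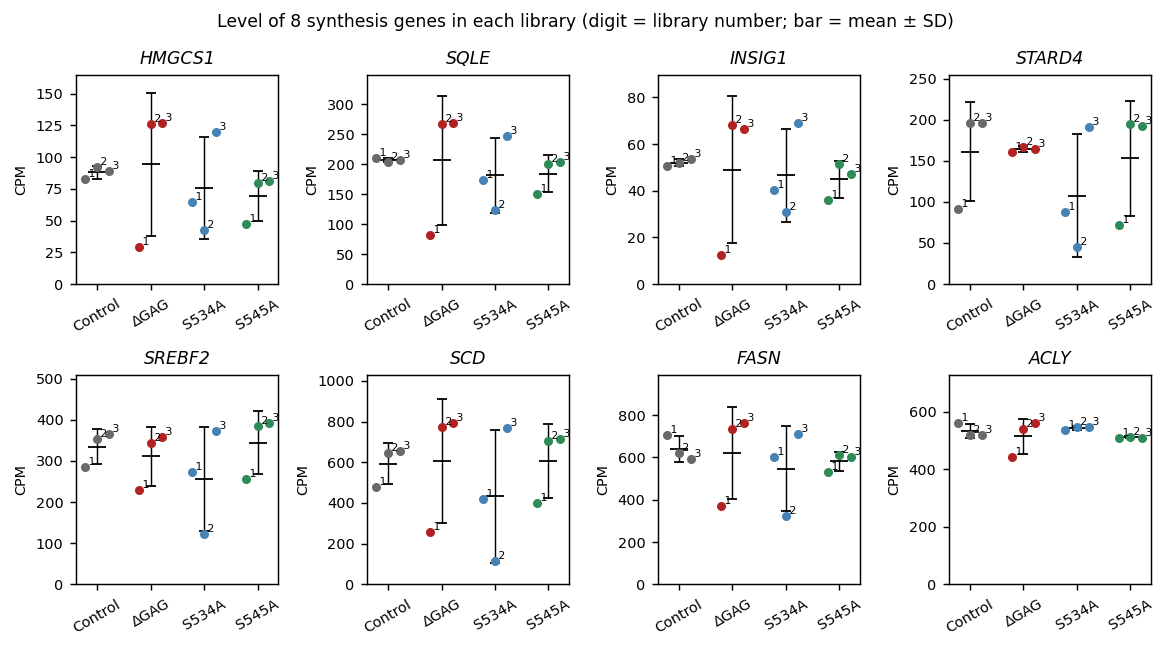
Level in CPM (y axis, from 0) of 8 genes in the 12 libraries, grouped as labelled on the x axis, with the library number beside each point and the mean ± SD of 3 libraries as a bar. In ∆GAG, library 1 lies below libraries 2 and 3 for all 8 genes, though for STARD4 by only 1.03-fold, and in S534A library 2 is the lowest for all but ACLY.

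The promoter sequences of genes that were low in the same libraries were set beside those of PMVK and ELOVL6, whose highest and lowest libraries differed 1.54-fold and 1.28-fold. RefSeq promoters (250 bases before to 50 after a start, GRCh38.p14) were found for 25 of the 29 genes, 34 promoters in all, but not for ACAT2, FDFT1, SQLE and FASN. The 250 bases before the start are shown 5′ to 3′ on the strand of the gene. Capitals mark the CCAAT box, to which the SREBP partner NF-Y is known to bind, read as CCAAT or on the other strand as ATTGG, and in SREBF2 also a match to the sterol regulatory element TCACNCCAC. The windows are chr5:43313413-43313662 for HMGCS1, chr7:155297628-155297877 for INSIG1, chr10:100346983-100347232 for SCD, chr22:41832855-41833104 for SREBF2, chr1:154936720-154936969 for PMVK and chr4:110198616-110198865 for ELOVL6.
HMGCS1: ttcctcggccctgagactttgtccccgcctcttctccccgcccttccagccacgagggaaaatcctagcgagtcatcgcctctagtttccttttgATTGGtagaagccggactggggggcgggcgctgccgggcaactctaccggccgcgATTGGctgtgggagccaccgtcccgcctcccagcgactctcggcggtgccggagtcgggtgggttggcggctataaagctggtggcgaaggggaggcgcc
INSIG1: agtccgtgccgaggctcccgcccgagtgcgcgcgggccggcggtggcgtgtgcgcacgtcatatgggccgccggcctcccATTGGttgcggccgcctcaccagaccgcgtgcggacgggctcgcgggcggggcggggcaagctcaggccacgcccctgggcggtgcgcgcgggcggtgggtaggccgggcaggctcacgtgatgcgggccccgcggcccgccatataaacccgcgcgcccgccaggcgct
SCD: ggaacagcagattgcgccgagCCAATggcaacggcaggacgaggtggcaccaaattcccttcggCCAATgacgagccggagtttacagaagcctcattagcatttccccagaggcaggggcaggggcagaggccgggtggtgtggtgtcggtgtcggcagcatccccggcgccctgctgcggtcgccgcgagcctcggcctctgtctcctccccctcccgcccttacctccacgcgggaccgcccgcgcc
SREBF2: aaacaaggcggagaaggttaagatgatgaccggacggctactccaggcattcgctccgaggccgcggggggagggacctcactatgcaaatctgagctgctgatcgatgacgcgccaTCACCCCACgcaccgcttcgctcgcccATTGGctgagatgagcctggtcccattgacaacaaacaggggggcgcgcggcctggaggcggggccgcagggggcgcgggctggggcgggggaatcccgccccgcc
PMVK: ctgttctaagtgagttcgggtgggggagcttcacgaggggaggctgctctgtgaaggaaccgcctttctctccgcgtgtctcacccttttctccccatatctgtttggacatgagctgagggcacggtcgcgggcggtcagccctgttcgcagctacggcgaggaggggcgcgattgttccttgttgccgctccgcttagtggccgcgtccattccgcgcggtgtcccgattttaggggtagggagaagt
ELOVL6: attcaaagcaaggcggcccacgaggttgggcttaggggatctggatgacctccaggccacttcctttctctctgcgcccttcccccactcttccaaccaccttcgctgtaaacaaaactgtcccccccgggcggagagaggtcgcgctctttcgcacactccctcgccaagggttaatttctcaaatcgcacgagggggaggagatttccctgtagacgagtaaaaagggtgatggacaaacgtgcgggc

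A CCAAT box on either strand was present in 24 of the 34 promoters (70.6%), in 20 of 25 genes, and in 34.6% of all 35116 promoters of the same length. HMGCS1 and SCD held 2 each in the window shown, INSIG1 and SREBF2 held 1, and the most, 5, were in MVK and NSDHL. PMVK, ELOVL6, FADS1, SREBF1 and CYP51A1 held 0 in every window read. The list of genes without one thus holds PMVK, ELOVL6 and FADS1, which varied little, and also SREBF1 and CYP51A1, which were lowest in S534A-2. Other genes that varied little did hold the box. ACLY (1.263-fold between highest and lowest library) held 2 in each window, NSDHL (1.45-fold) held 5 and MVD (1.485-fold) held 3. The GC box GGGCGG, on either strand, was in 88.2% of the promoters against 45.0% of all and 65.0% of those of genes tested. The E-box CACGTG was in 11.8% against 7.26%, and TCACNCCAC was in 1 promoter, that of SREBF2, against 1.13% of all. These counts describe exact letters in a window and not binding, and elements of other spelling or outside the window were not read.

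Other genes of the pathway were read from lists written with the set. Of 19 known SREBP targets outside the 29 that were tested, only NPC1 passed an unadjusted p of 0.05 in S534A against ∆GAG, only PNPLA3 did in S545A against S534A, and 0 did in the other 4 comparisons. The log2 fold change of NPC1, a carrier of cholesterol out of lysosomes, was -0.56 (adjusted p = 0.89 in edgeR's quasi-likelihood test). None passed after adjustment, and neither did any gene of the lists that follow.

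Of the 9 genes of the SREBP processing machinery, 0 passed an unadjusted p of 0.05 in any comparison. ERLIN1 was at 102 CPM in S534A-2 and at 68.9 to 77.8 CPM in the other libraries, and FAF2 was at 98.8 CPM there and at 114 to 128 CPM in the others. The escort SCAP ranged from 102 to 122 CPM over the 12 libraries, with 120.4 in ∆GAG-1 and 122 in S534A-2. Among 8 genes of sterol export and LXR response, the exporter gene ABCG1 was at 4.39, 3.96 and 4.19 CPM in control, at 8.12, 4.51 and 5.33 CPM in ∆GAG, at 3.06, 1.53 and 4.43 CPM in S534A and at 4.57, 6.32 and 7.21 CPM in S545A. It was highest in ∆GAG-1, where the synthesis genes were low, and lowest in S534A-2, where they were also low. In edgeR's quasi-likelihood test its log2 difference was -1.03 in S534A against ∆GAG (unadjusted p = 0.00916, adjusted p = 0.89) and 1.04 in S545A against S534A (unadjusted p = 0.00833, adjusted p = 0.702). The 2 tested genes of sterol esterification and oxysterols passed in 0 comparisons. Of 9 genes of fatty acid oxidation, PPARGC1A was at 0.711, 0.501 and 0.485 CPM in S534A and from 0.948 to 1.28 CPM in all other libraries, and its log2 difference from control was -1.03 (unadjusted p = 0.000608, adjusted p = 0.871 in edgeR's quasi-likelihood test). Its counts were low, 8 to 20 per library in S534A and 21 to 33 in the others. CPT1A, which admits fatty acids to mitochondria, was at 11.3, 22.1 and 2.0 CPM in S534A and at 12.1 CPM in ∆GAG-1 and 12.2 CPM in S545A-1, and at most 3.63 CPM in every other library.

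All 10 genes of the ER stress list were highest in ∆GAG-1 over the 12 libraries (16.2% of all genes tested were). The list was written with earlier results of these data known, in which 1 library stood apart by HSPA5, so these counts are no test. In S534A-2, 6 of the 10 were lowest, as were 25.4% of all genes (HSPA5, HSP90B1, ATF4, XBP1, HERPUD1 and PDIA4). DDIT3, DNAJB9, SDF2L1 and CRELD2 were each lower in at least 1 other library. HSPA5, the ER chaperone BiP, was at 1290, 3878 and 3906 CPM in control, at 11860, 1256 and 1228 CPM in ∆GAG, at 1250, 287 and 1985 CPM in S534A and at 1273, 2596 and 2628 CPM in S545A. It was thus highest in ∆GAG-1 and lowest in S534A-2, the 2 libraries with the lowest synthesis genes. The mean log2(CPM + 1) of the 10 ER stress genes was 8.73 in ∆GAG-1, 5.36 in S534A-2 and 6.22 to 7.29 in the other 10 libraries. In S534A against ∆GAG, 5 of the 10 had an unadjusted p under 0.05 in edgeR's quasi-likelihood test, against 2.99% of all genes tested. In the other comparisons 0 did. The 5 genes, HSPA5, DDIT3, HERPUD1, PDIA4 and SDF2L1, were all lower in S534A. For each of them only ∆GAG-1 lay above every S534A library, while ∆GAG-2 and ∆GAG-3 lay below S534A-3. The part of ER stress in the levels of the synthesis genes was not tested.

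**Figure D4:**
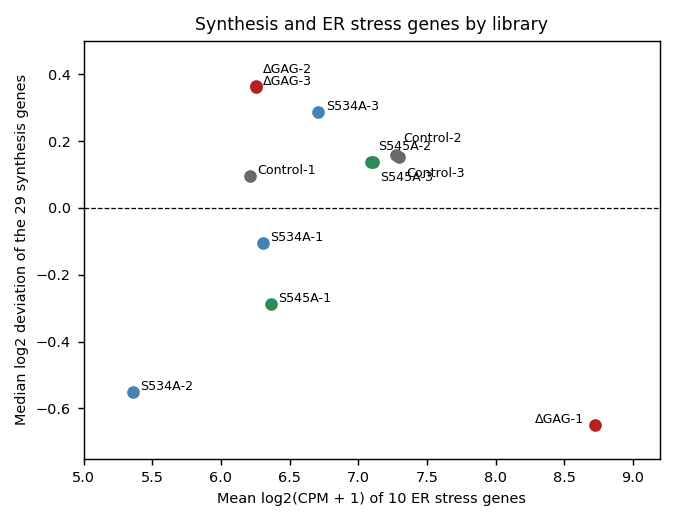
Median log2 deviation of the 29 genes (y axis) against the mean log2(CPM + 1) of 10 ER stress genes (x axis), 1 point for each of the 12 libraries, colored by labelled group. ∆GAG-1 lies at the right (8.73) with a median of -0.65, S534A-2 at the left (5.36) with a median of -0.55, and the other 10 libraries lie between them on the x axis.

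The direction of the comparisons with ∆GAG turned on which ∆GAG libraries were used. Without the library labelled ∆GAG-1, 6 of 29 genes had an unadjusted p under 0.05 in S534A against ∆GAG in edgeR's quasi-likelihood test (3.99% of all genes tested), all lower in S534A, namely FDPS, FDFT1, SQLE, IDI1, MVK and EBP. The median log2 fold change was -0.48 with 27 of 29 below 0. In S545A against ∆GAG, 6 genes also passed (5.55% of all), namely HMGCS1, SQLE, IDI1, MVK, EBP and NSDHL, with a median of -0.36. In ∆GAG against control, EBP alone passed (2.49% of all), with a median of 0.26. The adjusted p of each of these genes was at least 0.731 in edgeR's quasi-likelihood test. The remaining ∆GAG libraries are the close pair in which TGFBR3 was low, and they counted here as separate replicates. If they are not independent, these p-values are too small.

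With libraries 2 and 3 of ∆GAG and control left out in place of ∆GAG-1, the signs were the opposite. In ∆GAG against control 6 of 29 passed an unadjusted p of 0.05 (9.07% of all), namely ACAT2, INSIG1, SQLE, IDI1, ACLY and EBP, all lower in ∆GAG, and the median was -0.60. In S534A against ∆GAG 7 passed (11.1% of all), the same genes with HMGCS1, all higher in S534A, with a median of 0.56. In S545A against ∆GAG 6 passed (5.36% of all), namely FDPS, ACAT2, INSIG1, SQLE, IDI1 and EBP, all higher in S545A, with a median of 0.65. INSIG1 had a log2 fold change of -2.03 in ∆GAG against control and of 1.89 in S534A against ∆GAG. Here ∆GAG and control were 1 library each, assumed to vary like the other groups, and 0 of 29 passed after adjustment.

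**Figure D5:**
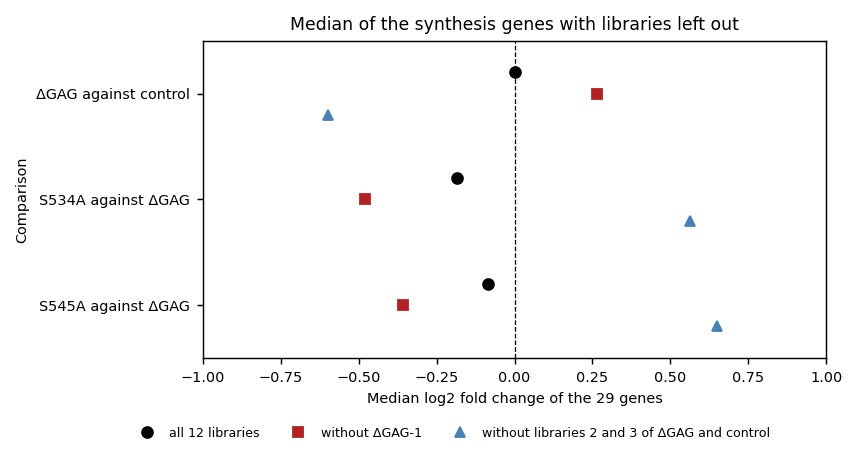
Median log2 fold change of the 29 genes (x axis) in 3 comparisons (y axis) with all 12 libraries, without ∆GAG-1, and without libraries 2 and 3 of ∆GAG and control. Leaving out ∆GAG-1 moves the medians to 0.26, -0.48 and -0.36, and leaving out the others moves them to -0.60, 0.56 and 0.65.

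S534A-3, the shallowest library, bore on the other comparisons. Without it, HSD17B7 and STARD4 had an unadjusted p under 0.05 in S534A against ∆GAG (10.8% of all genes), these and SREBF2 in S534A against control (11.7%), and these 3 with TM7SF2 and SREBF1 in S545A against S534A (15.8%). All were lower in S534A, and STARD4 differed from control by -1.28 on the log2 scale, but 0 passed after adjustment in edgeR's quasi-likelihood test. The 2 remaining S534A libraries include S534A-2, the lowest of all 12 for each of these genes. Without S545A-1, ELOVL6 and TM7SF2 passed an unadjusted p of 0.05 in S545A against S534A (12% of all genes), with log2 fold changes of -0.28 and 0.63 in edgeR's quasi-likelihood test. The S545A libraries then left are a close pair, also counted as separate replicates. In a fit of only the 2 groups compared, NSDHL passed in S545A against control (2.61% of all genes), with a log2 fold change of -0.19.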

How the data were processed

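The authors deposited 1 table of raw counts per gene for 12 libraries, made from directional paired-end reads. The submitters' processing notes list FastQC, Trim Galore 0.4.5, STAR 2.4, SAMtools 1.2 and featureCounts and name the mouse build mm10, but the table's coordinates are human GRCh38, since 27 of the 29 genes and TGFBR3 have the coordinates of GENCODE release 29. The deposited counts were not normalized, and the authors analyzed them with bioJupies. The third S545A library has a title reading S545S and a genotype label reading S545A, and was used as S545A.

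Genes were kept by edgeR's filterByExpr (minimum count 10), and TMM-scaled counts were tested with the robust quasi-likelihood method of edgeR 4.0.16 (R 4.3.3). A single model held all 4 groups (residual degrees of freedom 8, biological coefficient of variation 0.163), and p-values were adjusted by Benjamini-Hochberg over 16069 genes. Library deviations used log2(CPM + 1). An exact permutation test, two-sided, served for single genes (smallest p 0.1). The edgeR steps were tested on simulated counts of independent libraries, with no outlying library and no close pair. That run therefore does not cover these features of the data. The alternatives were DESeq2 1.42.0, limma-voom (limma 3.58.1), other size factors and filters, only the 2 groups compared, a replicate block, close libraries summed, and libraries left out. The 29 genes, the pathway lists and the tests were chosen with earlier results of these data known. All 29 were named, with TGFBR3, HSPA5 and, of each pathway list, at most 3 genes per comparison with an unadjusted p under 0.05. SCAP, ERLIN1, FAF2 and the further ER stress genes fall outside this rule and were named after their values were seen. Between S545A and control the deviations of libraries with the same number correlated at 0.73, 0.48 and 0.48. No other source gives a pairing, and the main tests used none, so the replicate block was only an alternative. Libraries 2 and 3 were close in both groups, so the 3 correlations are not independent and cannot match libraries 2 and 3 by number. The other comparisons had at least 1 pair under 0.1. Some single genes of the pathway lists are not reported here.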

Additional observations from a re-analysis of the deposited data

How the results depend on the processing

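The count of 0 genes at an adjusted p under 0.05 held under every alternative run in all 6 comparisons. With libraries 2 and 3 of ∆GAG and control left out, the genes at an unadjusted p under 0.05 numbered 6 in ∆GAG against control, 7 in S534A against ∆GAG and 6 in S545A against ∆GAG, with medians of -0.60, 0.56 and 0.65. HMGCS1 then had log2 fold changes of -1.51, 1.36 and 1.24 in these comparisons, MVD -0.08 and FADS2 -0.48 in ∆GAG against control, NSDHL 0.17 in S545A against ∆GAG and STARD4 0.22 in S534A against control. HMGCS1 in ∆GAG against control was also negative under limma-voom (-0.18), the replicate block (-0.073) and libraries 2 and 3 summed (-0.15). A fit of only the 2 groups compared passed 1 gene, NSDHL, in S545A against control, where 2.61% of all genes passed. With 1 library left out at a time, the genes at an unadjusted p under 0.05 ranged from 0 to 1 in ∆GAG against control, from 0 to 6 in S534A against ∆GAG and in S545A against ∆GAG, from 0 to 3 in S534A against control and from 0 to 5 in S545A against S534A. The shares of all genes at the highest counts were 2.49%, 3.99%, 5.55%, 11.7% and 15.8% in this order. Without S534A-2 the median of the 29 genes turned to 0.02 in S534A against control and to -0.09 in S545A against S534A. In the same fits HMGCS1 ranged from -0.18 to 0.52 in ∆GAG against control, from -0.72 to 0.063 in S534A against control and from -0.40 to 0.37 in S545A against S534A, and FADS2 from -0.057 to 0.53 in ∆GAG against control. The causes of these changes were not tested. The replicate block passed 0 of 29 genes at an unadjusted p under 0.05 in every comparison, against 1.1% to 4.65% of all genes tested. Its medians of the 29 genes ran from -0.21 to 0.09, and it changed no call. The library medians of the 29 genes had a pooled SD of 0.38 within groups, and with 3 libraries a group the intervals of single genes reached 1.25 on the log2 scale to either side.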
